A study of Mus musculus with 3 samples.

Results

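Interstitial collagens and scar matrix genes were followed through single-cell transcriptomes of mouse glomeruli, the filtering units of the kidney. The members are 10 genes chosen by name, Col1a1, Col1a2, Col3a1, Col8a1, Col12a1, Fn1, Mgp, Sparc, Timp1 and Lox, and each matched 1 of the 32285 genes listed in the count matrices. Their unique molecular identifiers (UMIs, tags that mark single captured transcripts) were summed over barcodes with at least 1000 UMIs and at most 10% mitochondrial UMIs, here called cells. There were 41713 cells, 11018 of them from the control library, 14109 from the MRL/lpr library and 16586 from the library of treated MRL/lpr mice. The treatment was an infusion of hUC-MSCs, mesenchymal stem cells grown from human umbilical cord.

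MRL/lpr mice carry the lpr mutation of Fas on the autoimmune-prone MRL background and develop spontaneous lupus nephritis. In the methods, female MRL/lpr mice entered the model at about 16 weeks of age, and treated mice received 800000 hUC-MSCs each by tail vein injection. The text sets the comparison of treated with untreated MRL/lpr mice at 21 days. The label of the control library names neither strain nor age, although MRL/MpJ mice served as controls elsewhere in the study, and the number of mice pooled in a library was not found in the sources used here. All 3 libraries were made from glomeruli released with collagenase, an enzyme that digests collagen protein. Each group was 1 library, so no test between groups was possible, cells are not replicates, and disease, strain, treatment and preparation cannot be told apart. Every interval below is an exact 95% interval that covers counting error only.

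Fibrillar collagens such as types I and III are secreted as triple-helical procollagens, trimmed outside the cell and cross-linked by lysyl oxidases into fibres. A normal glomerulus holds little of them, since its scaffold is basement membrane collagen IV and the mesangial matrix laid down by mesangial cells, the contractile pericytes between the capillaries. In scarring kidneys interstitial collagens, fibronectin and matricellular proteins accumulate, produced by activated pericytes, fibroblasts and mesangial cells. Collagens VIII and XII are, respectively, a short-chain network collagen of vessel walls and a fibril-associated collagen. Fibronectin (Fn1) is an adhesive glycoprotein, matrix Gla protein (Mgp) an inhibitor of calcification, Sparc a collagen-binding matricellular protein, Timp1 an inhibitor of matrix metalloproteinases and Lox a lysyl oxidase.

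In GENCODE M21 (GRCm38) the members are protein-coding genes spread over the genome. Col1a1 lies on the plus strand at chr11:94936224-94953042 and Col1a2, whose product joins it in type I collagen, on the plus strand at chr6:4504814-4541544. Col3a1 lies at chr1:45311538-45349706 (plus), Col8a1 at chr16:57624258-57754737 (minus) and Col12a1 at chr9:79598991-79718831 (minus). Fn1 lies at chr1:71585520-71653200 (minus), Mgp at chr6:136872435-136875823 (minus), Sparc at chr11:55394500-55423183 (minus) and Timp1 at chrX:20870166-20874735 (plus). RefSeq promoter sequences were at hand for 5 of the 10 members. The 150 bases before the RefSeq start are shown for Col1a2 and Col3a1, the pair of fibrillar collagens among those 5, because their transcripts were carried by partly different cells. The intervals are chr6:4505468-4505617 and chr1:45311388-45311537 of GRCm38.p6, both on the plus strand, and capitals mark a CCAAT match in the first and a TATAAA match in the second. The RefSeq start used for Col1a2 lies inside the GENCODE span of the gene.
Col1a2: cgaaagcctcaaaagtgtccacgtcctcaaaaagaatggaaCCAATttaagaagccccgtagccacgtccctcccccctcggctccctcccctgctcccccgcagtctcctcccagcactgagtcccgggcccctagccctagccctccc
Col3a1: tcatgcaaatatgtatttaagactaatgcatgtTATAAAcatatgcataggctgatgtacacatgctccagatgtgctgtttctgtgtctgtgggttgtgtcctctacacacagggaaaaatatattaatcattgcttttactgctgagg
The CCAAT match began 109 bases before the Col1a2 start and the TATAAA match 117 bases before the Col3a1 start. Of the 32851 promoter windows of 250 upstream bases, 33.8% held CCAAT, 12.4% held TATAAA, 32.7% held the GC box GGGCGG and 6.75% held the AP-1 motif TGANTCA, each searched on both strands. In those longer windows Col1a2 also had 2 GC boxes, Col8a1 had 4 and Timp1 had 1 with a CCAAT box, while Sparc had none of the 4 motifs. These matches describe letters only.

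Cells were clustered without the members and without 6 lists of matrix genes, so that collagen levels did not form the classes, and clusters were named from marker genes. Mesangial-like cells numbered 1171 in the control, 2046 in the MRL/lpr and 2302 in the treated library, with summed levels of the 7 mesangial markers (Itga8, Pdgfrb and others) of 9094, 8339 and 7822 CPM (CPM is the usual depth-scaled count, here the UMIs of a gene relative to all UMIs of the class). No cluster could be named stromal. Of the 7 stromal markers, which mark interstitial fibroblasts, Lum, Dpt, Clec3b and Scara5 were each at 0.5 CPM or less in mesangial-like cells. The other 3 were found there, with Pdgfra at 57.7, 46.9 and 45.2, Dcn at 11.5, 27.6 and 50.1 and Pi16 at 97.8, 159 and 109 CPM in the control, MRL/lpr and treated libraries. Cells that held UMIs of at least 3 stromal markers numbered 47, 61 and 94. Smooth muscle and renin-like cells were few, 29 in control, 47 in MRL/lpr and, in the treated library, 46 and 55 in the 2 clusters of the class, which are described apart. Median depth differed between the libraries, from 9314 UMIs per mesangial-like cell in the control to 4065.5 in MRL/lpr and 3537.5 in treated mice, and levels are therefore given in CPM. The libraries shared 35 to 61 cell barcodes, 0.235% to 0.432% of a library's cells. Random draws from the listed barcodes would share 22.9 to 34.4. The MRL/lpr and treated libraries shared 61, beside 34.4 from such draws, and the cause was not tested.

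The members were compared between libraries in the mesangial-like cells. Between the control and MRL/lpr libraries 5 of the 8 members with enough UMIs (at least 20 over both libraries) were at least 2-fold higher and 0 were 2-fold lower, and between the MRL/lpr and treated libraries 7 of 10 were at least 2-fold higher and 0 lower. Across all genes counted in these cells 13.6% were at least 2-fold higher and 5.27% at least 2-fold lower in MRL/lpr over control, and 4.54% were higher and 5.08% lower in treated over MRL/lpr. Treated over control, 9 of 10 members were at least 2-fold higher and 0 lower, beside 16.3% and 7.05% of all genes. Of those 9, Col1a1, Lox, Fn1 and Timp1 had 2, 1, 7 and 6 control UMIs, reached 20 only through the treated library and could not have been counted as lower. The same holds for Fn1 and Timp1 in MRL/lpr over control and for Col1a1 and Lox in treated over MRL/lpr, so the counts and medians are descriptions only. The median log2 ratio of the members was 1.27, 1.43 and 3.32 in these 3 comparisons, beside 0.05, 0.12 and 0.16 for all genes. Higher medians were not seen in mesangial-like cells alone. In endothelial-like cells the medians were 1.17, 1.24 and 2.57 over 7, 9 and 9 counted members, beside 0.02, 0.14 and 0.15 for all genes. Control endothelial-like cells had 6 Col1a1, 2 Col3a1 and 4 Lox UMIs. Against control these members could be counted only through the other library and never as lower, so these medians too are descriptions only. The comparisons share libraries, and with 1 library each they compare those libraries. Sparc was lower than control in both other libraries. The 5 members higher in MRL/lpr became 3 under a minimum of 100 UMIs a gene, and the 7 higher in treated cells became 4 under the study's limit of 200 to 3000 genes a cell.

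**Figure D1:**
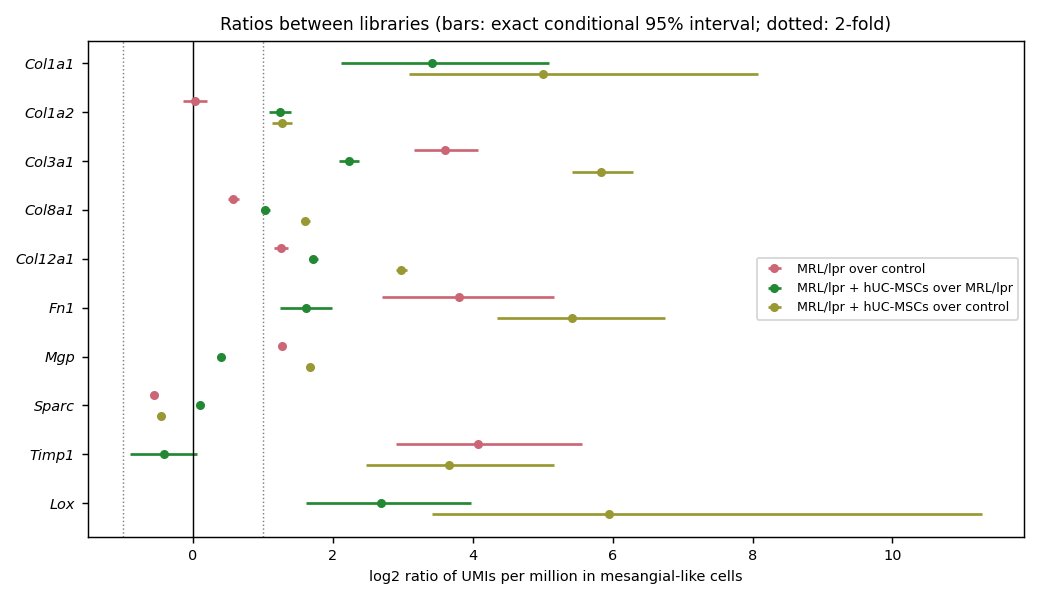
Log2 ratios of CPM between libraries in mesangial-like cells (x axis), for each member (y axis). Points are ratios for members with at least 20 UMIs over both libraries, bars are exact conditional 95% intervals, and dotted lines mark 2-fold. Col3a1 stands far to the right in every comparison, Sparc stays within 2-fold of 0, and Timp1 has its treated over MRL/lpr interval across 0.

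Col3a1 encodes the type III fibrillar collagen. Its level in mesangial-like cells was 2.75 CPM in the control library (interval 2.01 to 3.67, 46 UMIs), 33.4 in MRL/lpr (30.4 to 36.5, 467 UMIs) and 157 in treated mice (150.5 to 163, 2376 UMIs). The 3 intervals lay far apart. The log2 ratio was 3.60 (3.16 to 4.07) for MRL/lpr over control and 2.23 (2.09 to 2.38) for treated over MRL/lpr. With free RNA of barcodes of 1 to 100 UMIs subtracted, Col3a1 was 0 in control and MRL/lpr cells and 138 CPM in treated cells. No MRL/lpr over control ratio could then be given, and the second ratio was set by the floor of 3 UMIs (9.06). With barcodes of more than 100 and up to 500 UMIs as the profile, the first ratio was 4.06. Col3a1 was at 492 CPM in control and 617 in MRL/lpr barcodes of 6 to 20 UMIs. In barcodes of more than 100 and up to 500 UMIs it was at 10.2 and 8.57. The profiles thus differ, and the second was added after seeing the data. Which of them describes the free RNA of these cells was not tested. More cells carried the transcript as well: with each cell thinned to 1000 UMIs, a Col3a1 UMI was found in 0.427% of control, 2.54% of MRL/lpr and 10.2% of treated mesangial-like cells, against 3.16%, 9.92% and 32.4% unthinned. T/NK-like cells, which should lack the gene, had thinned shares of 0%, 0% and 0.257% in the 3 libraries. Their median depths were 2980.5, 2063 and 1846.5 UMIs, and the 0 UMIs in the 196 control and 1152 MRL/lpr cells have exact upper bounds of 4.39 and 1.03 CPM.

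Col1a2 and Col1a1 encode the 2 chains of type I collagen, and their counts were far apart. Col1a2 in mesangial-like cells was 35.2 CPM (32.4 to 38.2) in control, 35.9 (32.8 to 39.1) in MRL/lpr and 84.9 (80.4 to 89.7) in treated mice. The first 2 intervals overlapped almost fully, with a log2 ratio of 0.03 (-0.15 to 0.20), and the treated library was higher than MRL/lpr by a log2 ratio of 1.24 (1.09 to 1.40), or 0.84 with 200 to 3000 genes a cell. Col1a1, by contrast, was close to absent from cells: 2, 5 and 58 UMIs in the mesangial-like cells of the 3 libraries, or 0.12, 0.357 and 3.82 CPM. A single treated cell held 40 of those 58 UMIs. That cell lay in a mesangial-like cluster, was not a predicted doublet, had 9962 UMIs in all and also held 44 Col1a2, 89 Col3a1, 112 Mgp and 24 Dcn UMIs. Of the stromal markers it held, beside Dcn (decorin), 1 Dpt and 2 Pi16 UMIs, while Pdgfra, Lum, Clec3b and Scara5 were at 0. Without it the treated level of Col1a1 was 1.19 (0.704 to 1.88), and its log2 ratio over MRL/lpr went from 3.42 (2.12 to 5.10) to 1.73 (0.25 to 3.52). With classes by the highest marker score of each cell, the Col1a1 ratio of treated over MRL/lpr was 1.04.

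Col8a1 and Col12a1 showed a graded pattern with many UMIs behind it. Col12a1, the fibril-associated collagen, was 79.6 CPM (75.4 to 84.0) in control, 191 (183 to 198) in MRL/lpr and 628 (616 to 641) in treated mesangial-like cells. Col8a1 was 138 (133 to 144), 206 (199 to 214) and 422 (411 to 432). For both genes the 3 intervals were ordered without overlap, and the step from MRL/lpr to treated was the larger one. The log2 ratios of Col12a1 were 1.26 (1.16 to 1.36) and then 1.72 (1.66 to 1.78), and those of Col8a1 were 0.58 (0.50 to 0.66) and then 1.03, with a lower bound of 0.97. The first ratio of Col12a1 was 0.98 with 200 to 3000 genes a cell and the second of Col8a1 was 0.92 when scaled by the median gene ratio, both under 2-fold. The thinned share of mesangial-like cells with a Col12a1 UMI was 7.86%, 14.4% and 36.8%, with 0%, 0.781% and 1.93% of T/NK-like cells as background.

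Counted per cell, the 5 collagens together were found in more mesangial-like cells of the treated library than of the others. After thinning to 1000 UMIs, 77.5% of control, 69.7% of MRL/lpr and 41.8% of treated mesangial-like cells had no collagen UMI of these 5 genes. Cells with 3 or more made up 0.598%, 2.30% and 12.3%. The highest value in a cell was 3, 7 and 25, and 8 or more were reached by 0, 0 and 8 cells. Where a treated cell had a Col3a1 UMI, 48.5% also had Col12a1, against 35.5% of treated cells without Col3a1, and 75.7% also had Mgp, against 62.2%.

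**Figure D2:**
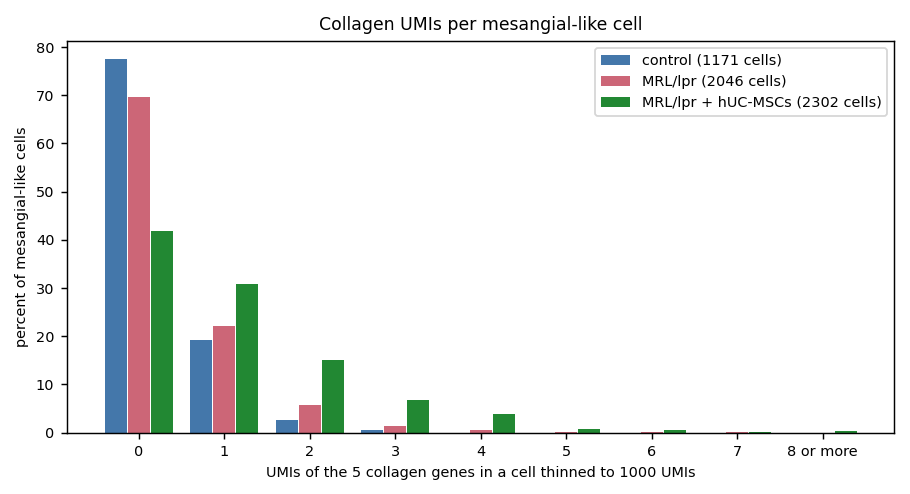
Share of mesangial-like cells (y axis, percent) by the number of UMIs of Col1a1, Col1a2, Col3a1, Col8a1 and Col12a1 in a cell thinned to 1000 UMIs (x axis), one bar per library. The control and MRL/lpr bars are highest at 0, with 77.5% and 69.7% of cells, while the treated library has 41.8% at 0 and the largest shares at 1, 2, 3 and 4 UMIs.

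The noncollagenous members did not move as 1 group. Mgp was 595 CPM (583 to 606) in control, 1435 (1415 to 1455) in MRL/lpr and 1899 (1877 to 1921) in treated mesangial-like cells, so that its larger step was the first, with log2 ratios of 1.27 (1.24 to 1.31) and 0.40 (0.38 to 0.43). Fn1, which macrophages and monocytes also make, was 0.418 (0.168 to 0.862, 7 UMIs), 5.86 (4.66 to 7.27) and 17.9 (15.8 to 20.1), with log2 ratios of 3.81 (2.70 to 5.17) and 1.61 (1.25 to 1.98). The first of these was 2.65 (0.68 to 5.75) with 200 to 3000 genes a cell. Lox was at 1, 8 and 56 UMIs, or 0.0598, 0.571 and 3.69 CPM. Its treated over MRL/lpr log2 ratio was 2.69 (1.62 to 3.97), or 4.90 (2.30 to 10.3) with 200 to 3000 genes a cell. Over all libraries Lox was 6.62 CPM in the mesangial-like cluster led by Cxcl9 and Aldh1a2. It was 0.105, 0.335 and 1.29 in those led by Sfrp2, by Il6 and Cxcl1, and by Aldh1a2 and Cdh11. Predicted doublets were 34.2% of the Cxcl9 cluster, which had macrophage as its second class by marker score. Mgp, Fn1 and Lox thus shared the order control, MRL/lpr, treated with Col3a1, Col8a1 and Col12a1, as reported. For Mgp the treated over MRL/lpr log2 ratio was -0.01 (-0.05 to 0.03) with 200 to 3000 genes a cell. With free RNA of barcodes of 1 to 100 UMIs subtracted, Col3a1, Fn1 and Lox were at 0 in both control and MRL/lpr cells. That subtraction thus gave no order between those libraries.

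Timp1 and Sparc had other orders. Timp1 was 0.359 CPM (0.132 to 0.781, 6 UMIs) in control, 6.07 (4.85 to 7.51) in MRL/lpr and 4.55 (3.54 to 5.76) in treated mesangial-like cells. It was higher in MRL/lpr than in control by a log2 ratio of 4.08 (2.90 to 5.57). With 200 to 3000 genes a cell this ratio was 1.92, set against the floor of 3 UMIs since no control UMI was left, and with free RNA of barcodes above 100 and up to 500 UMIs subtracted it was 5.80. Outside cells the order was the opposite. In barcodes with 21 to 100 UMIs, Timp1 was at 122 CPM in control (373 UMIs) and 3.79 in MRL/lpr (2 UMIs). Barcodes with at least 1000 UMIs held 162 and 632 Timp1 UMIs in these libraries. The treated over MRL/lpr ratio of -0.42 (-0.90 to 0.06) was within counting error of 0, and was 0.06 (-0.54 to 0.66) without predicted doublets. Sparc was highest in the control at 1613 (1594 to 1633) and lower in MRL/lpr at 1100.4 (1083 to 1118) and in treated mice at 1176 (1158 to 1193). Its log2 ratios over control were -0.55 (-0.58 to -0.52) and -0.46 (-0.48 to -0.43), and the 2 MRL/lpr libraries differed by 0.10 (0.06 to 0.13). None of these Sparc ratios reached 2-fold.

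Several other measures differed between the libraries in the same cells. The summed level of 10 dissociation stress genes (Fos, Jun, Hspa1a and others) was 37047, 23392 and 9331 CPM, all 10 being at least 2-fold lower in treated than in control cells. Macrophage markers summed to 0.897, 245 and 361 and neutrophil markers to 6.99, 81.2 and 403 CPM in mesangial-like cells. Of the 7 macrophage markers 3, 0 and 0 were at 0. Smooth muscle and renin markers summed to 177, 341 and 546, and stromal markers to 167, 234 and 205, with 3, 0 and 0 of the 7 at 0. Most of the stromal sum was Pi16 in each library, a gene found in 6786 of the 11018 control cells of all classes, while Dcn was in the order of the collagens. Predicted doublets were 13.3%, 14.2% and 17.3% of the mesangial-like cells. The part of these measures in the matrix gene levels was not tested. Leaving out predicted doublets changed the sign of none of the ratios past 2-fold, which does not show what part doublets have in their size.

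The mesangial-like class was made of different clusters in each library. Most control cells (866) were in a cluster led by Sfrp2, most MRL/lpr cells (1416) in one led by Il6 and Cxcl1, and most treated cells in one led by Aldh1a2, Cdh11 and Cd248 (957) or one led by Cxcl9 and Aldh1a2 (1079). Values within clusters follow. In the Sfrp2 cluster Col3a1 was 2.52, 12.6 and 68.4 CPM in control, MRL/lpr and treated cells. In the Il6 cluster it was 36.6 in MRL/lpr and 156 in treated cells, and in the Cxcl9 cluster 31.1 and 125. In the Aldh1a2 and Cdh11 cluster it was 8.52 (2.32 to 21.8), 156 (117 to 205) and 177 (168 to 186), where the last 2 intervals overlapped. Col12a1 in that cluster was 102, 393 and 729.8 CPM, and Col8a1 was 138, 288 and 487.

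Mgp was the exception within clusters. In the Aldh1a2 and Cdh11 cluster its level was 748 CPM in control, 5516 (5267 to 5774) in the 80 MRL/lpr cells and 2194 (2164 to 2225) in the 957 treated cells, so the treated library was lower, against the direction in the whole class. In the Il6 cluster Mgp was 633, 1829 and 1659. In the Sfrp2 cluster it was 580.1, 572 and 1014, and in the Cxcl9 cluster it was 503 in MRL/lpr and 1448 in treated cells. The difference in Mgp between treated and untreated MRL/lpr mice therefore took both signs among these 4 clusters, while the levels of Col3a1, Col8a1 and Col12a1 were higher in treated cells in all 4, with a log2 ratio interval across 0 for Col3a1 in the Aldh1a2 and Cdh11 cluster (0.18, -0.22 to 0.61). Predicted doublets were 66.7% of the 24 treated cells of the Sfrp2 cluster and 53.0% of the 266 MRL/lpr cells of the Cxcl9 cluster.

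**Figure D3:**
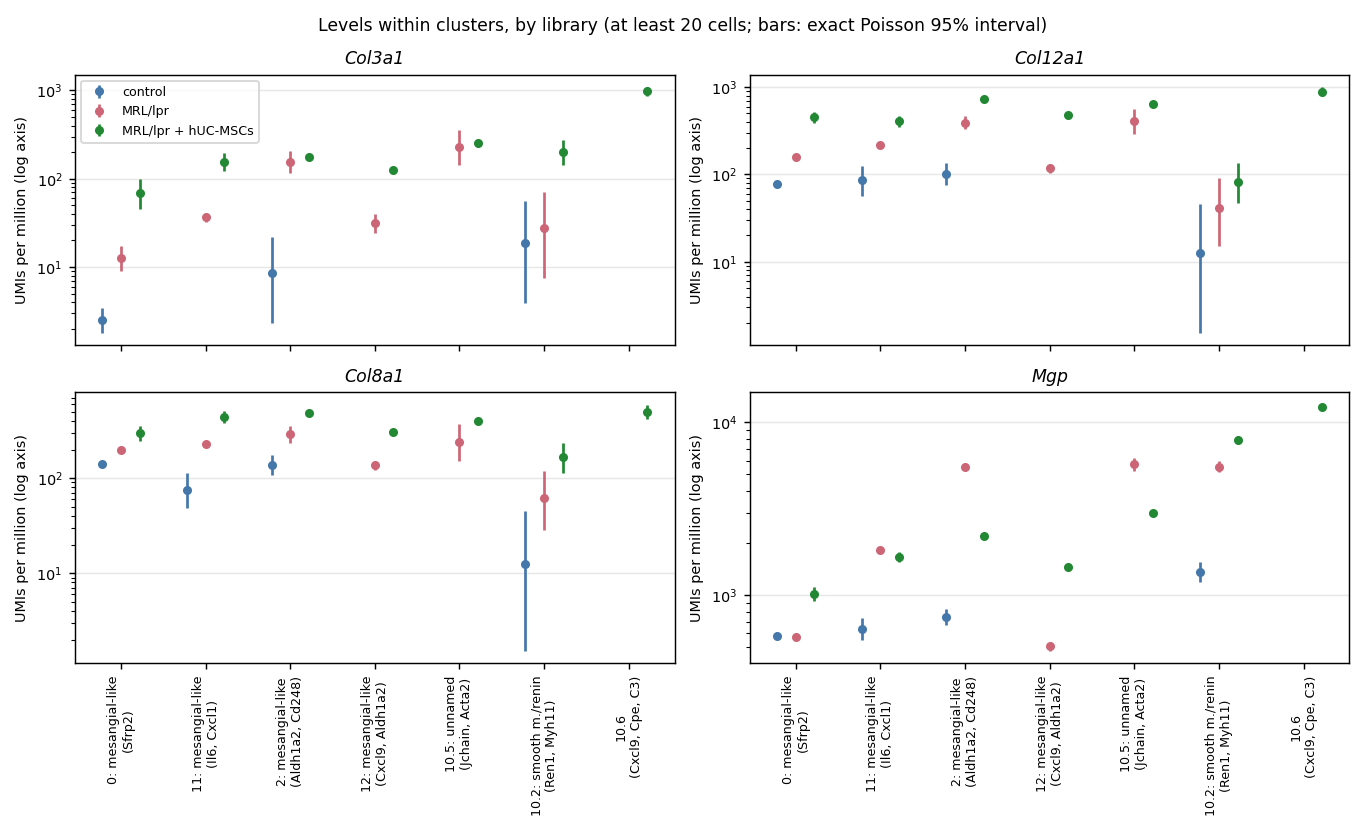
Levels of Col3a1, Col12a1, Col8a1 and Mgp (CPM, log axis) in single clusters (x axis, with leading genes), by library. Bars are exact Poisson 95% intervals, and libraries with under 20 cells or no UMI in a cluster are not drawn. The collagens have their highest points in treated cells within each cluster, whereas Mgp is higher in MRL/lpr than in treated cells in the clusters led by Il6 and by Aldh1a2 and Cd248 and in the unnamed cluster led by Jchain and Acta2.

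High levels of Col3a1 and Mgp were also found outside the mesangial-like class, in a small cluster led by Cxcl9, Cpe, Ccl2, C3, Tagln and Acta2, with 2 control, 8 MRL/lpr and 55 treated cells. By the markers it fell to the smooth muscle and renin-like class. Myh11 and Cnn1, contractile genes of smooth muscle, were at 0 UMIs in it. Ren1 (renin) was at 25.4 CPM in its treated cells and at 833 CPM in its MRL/lpr cells, from 23 UMIs in 5 of the 8 cells. The cluster is called here by its leading genes. In the 55 treated cells Col3a1 was 973 CPM (859.7 to 1096), Mgp 12235 (11826 to 12655), Col1a2 385 (315 to 465) and Fn1 316 (253 to 389). Col12a1 was 889, Col8a1 501 and Timp1 43.6 CPM. Of the stromal markers in these cells Pdgfra was at 79.8, Dcn at 94.4 and Pi16 at 25.4 CPM, Lum and Scara5 at 2 and 1 UMIs, and Dpt and Clec3b at 0. Of the mesangial markers Ptn was at 2116, Pdgfrb at 334 and Agtr1a at 312 CPM. Serpine2 was at 1782, Gata3 at 145, Sfrp2 at 79.8 and Itga8 at 61.7 CPM. In treated mesangial-like cells the same markers, in this order, were at 2188, 299, 480, 3816, 262, 306 and 470 CPM. In the 8 MRL/lpr cells Col3a1 was 1665 (1219 to 2221) from 46 UMIs, above the treated value.

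The other cluster of this class was led by Ren1, Tagln, Acta2 and Myh11 and had 27, 39 and 46 cells. Its Mgp level was 1362 CPM in control, 5541 in MRL/lpr and 7912 in treated cells, 3 intervals without overlap. Its Col3a1 level was 18.9 (3.90 to 55.3), 27.8 (7.58 to 71.2) and 202 (143 to 276). Fn1 was at 0 UMIs in its control and MRL/lpr cells and at 103 CPM (63.1 to 159.6, 20 UMIs) in its treated cells, and the exact upper bounds of the first pair were 23.3 and 25.6. Mesangial-like cells, far more numerous, held 70.8% of the UMIs of the 5 collagens in control, 75.9% in MRL/lpr and 75.4% in treated cells. Cells of unnamed clusters (84, 1667 and 3897) held 14.9% of them in the treated library. The unnamed cluster led by Jchain and Acta2 (42 MRL/lpr and 514 treated cells) scored highest for mesangial markers. It got no name because its leading genes held markers of other classes. Over all libraries its Col3a1 was 249 and its Col12a1 625 CPM.

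Podocytes, the epithelial cells that cover the capillaries, also held Col1a2, in a share that differed between the libraries. In the control library 64.3% of the Col1a2 UMIs lay in podocyte-like cells and 32.1% in mesangial-like cells, and the levels were 56.9 CPM (53.7 to 60.3) and 35.2. Podocyte-like cells held 28.6% of the Col1a2 UMIs in MRL/lpr and 5.83% in the treated library, where the cluster led by Cxcl9 and Cpe held 5.38% and the cluster led by Ren1 held 0.913%. Podocyte-like Col1a2 was 34.0 (30.0 to 38.2) in MRL/lpr and 83.4 (68.9 to 100.1) in treated cells. In mesangial-like cells the control and MRL/lpr levels were alike, while in podocyte-like cells MRL/lpr was lower by a log2 ratio of -0.75 (-0.94 to -0.55). Col3a1 was near absent from podocyte-like cells, at 3, 6 and 8 UMIs. Col8a1 in podocyte-like cells was 10.2, 6.89 and 7.25 CPM, lower in MRL/lpr than in control (log2 ratio -0.56, -1.02 to -0.13), opposite to the mesangial-like cells. Over all libraries it was 46.0 CPM in a podocyte-like cluster of 389 cells and 0.891 in the main one of 3263 cells. The smaller cluster had 89.2% predicted doublets and mesangial as its second class by marker score. The difference between the classes was not tested. The podocyte-like class held 2631, 951 and 171 cells.

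Sparc was shared by the 3 resident classes. It was 1736, 1780.0 and 3330.0 CPM in podocyte-like cells and 1653, 1398 and 1838 in endothelial-like cells of the control, MRL/lpr and treated libraries. In podocyte-like cells the treated level was higher than control by a log2 ratio of 0.94 (0.89 to 0.98), and in mesangial-like cells the same log2 ratio was -0.46. Endothelial-like cells held 43.7%, 39.7% and 49.0% of the Sparc UMIs. Different clusters held most endothelial-like cells of each library, a pair led by Cyp26b1 in control (2484 and 3030 cells), one led by Calca in MRL/lpr (2967) and a pair led by Sele and by Gm30382 in treated mice (2485 and 2164). In T/NK-like cells Sparc was 452, 492 and 468, with overlapping intervals. The difference between these classes was not tested.

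Among the cells of these libraries, without the smaller barcodes, Timp1 was mainly an endothelial transcript. Endothelial-like cells held 73.3% of its UMIs in control, 57.8% in MRL/lpr and 56.1% in treated cells. The level there was 3.79 CPM (3.14 to 4.54), 18.6 (16.7 to 20.6) and 17.8, the last 2 with a log2 ratio of -0.07 (-0.28 to 0.15). These values compare different endothelial-like clusters, with Timp1 at 4.66 and 4.32 CPM in the pair led by Cyp26b1, 18.2 in the Calca cluster and 19.0 and 13.3 in the Sele and Gm30382 clusters, over all libraries. In podocyte-like cells Timp1 was 1.40, 3.01 and 37.7 (28.2 to 49.4) from 29, 24 and 52 UMIs, so the treated podocyte-like cells stood apart with a log2 ratio over MRL/lpr of 3.65 (2.92 to 4.41). The difference between these classes was not tested.

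Fn1 in all 3 libraries, and Lox in the MRL/lpr and treated libraries, stood at higher levels in monocyte-like cells than in mesangial-like cells of the same library. Control Lox was at 1 UMI in each of these classes. Monocyte-like cells, circulating macrophage precursors, held 39.8%, 58.1% and 27.6% of the Fn1 UMIs, at levels of 63.2 (43.5 to 88.8), 92.4 (83.4 to 102) and 48.6 (43.1 to 54.7) CPM. Treated monocyte-like cells had less Fn1 than those of untreated MRL/lpr mice (log2 ratio -0.93, -1.15 to -0.70), whereas treated mesangial-like cells had more (1.61). The difference between these classes was not tested. Lox was 19.6 (15.9 to 23.9) in MRL/lpr and 25.8 (22.1 to 29.9) in treated macrophage-like cells, and 3.38 (1.85 to 5.67) and 33.2 (28.6 to 38.2) in monocyte-like cells of the same libraries. The Lox level in monocyte-like cells was thus higher in treated than in MRL/lpr mice by a log2 ratio of 3.30 (2.51 to 4.19), while that in macrophage-like cells differed by 0.40 (0.03 to 0.77). Macrophage-like cells numbered 11, 824 and 1628, and monocyte-like cells 113, 784 and 1589, of which 79 in control, 0 in MRL/lpr and 1 in treated mice lay in a cluster led by Ccl6. Other clusters that scored highest for monocyte markers stayed unnamed and are not in this class. One with 523 MRL/lpr cells among 568 had both Lox and Fn1 at 9.22 CPM. Another with 573 treated cells among 607 had Lox at 32.2 and Fn1 at 7.03 CPM.

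**Figure D4:**
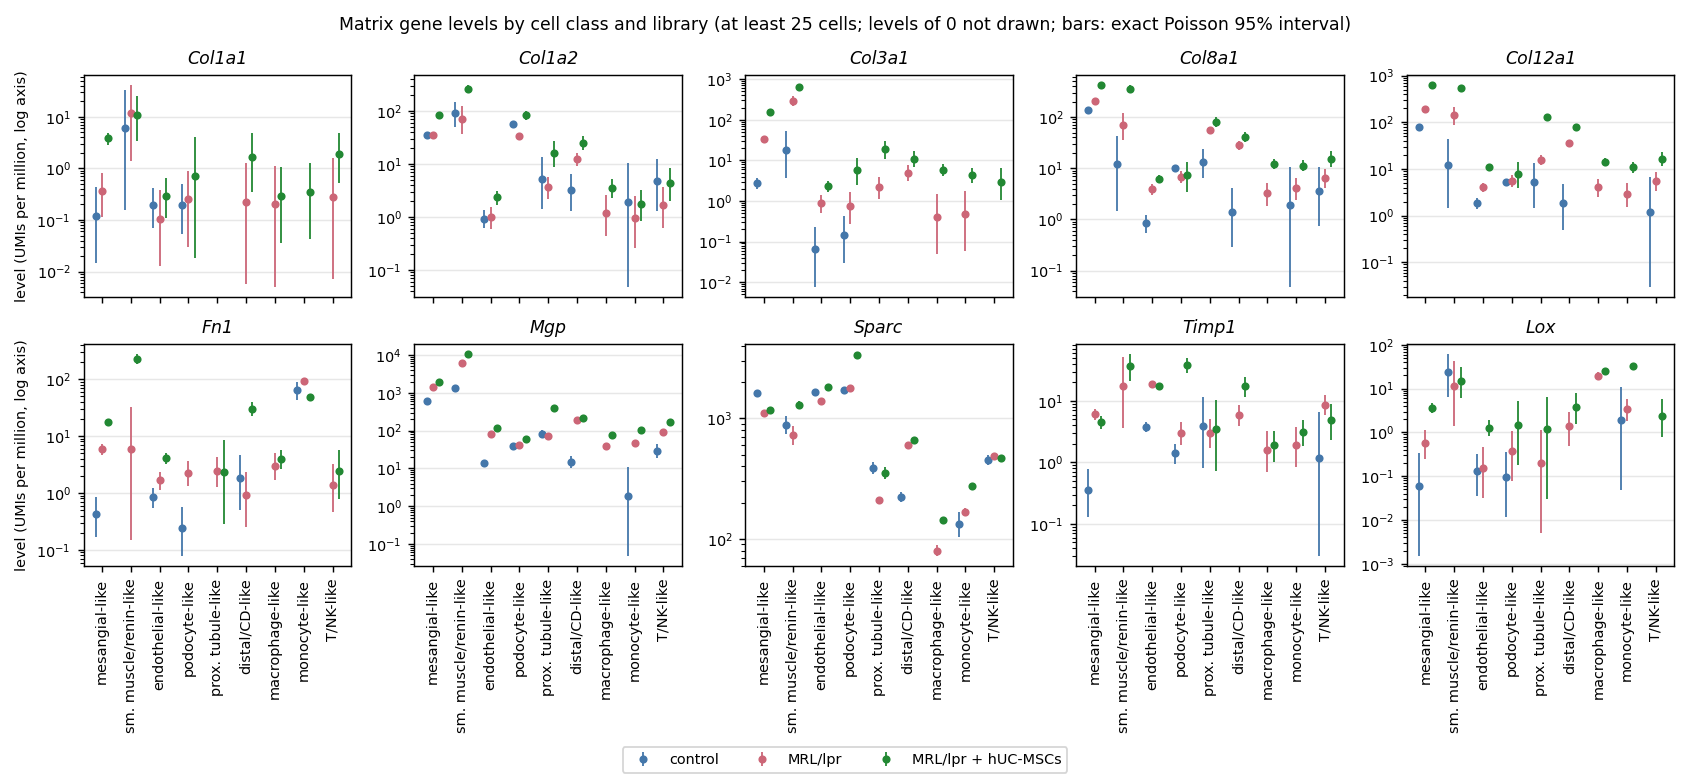
Level of each member (CPM, log axis) in 9 classes of cells (x axis) by library, with exact Poisson 95% intervals. Classes with under 25 cells in a library and levels of 0 are not drawn, and the smooth muscle and renin-like class pools the cluster led by Ren1 with the cluster led by Cxcl9 and Cpe. Col3a1, Col8a1, Col12a1 and Mgp are highest in mesangial-like or smooth muscle and renin-like cells, control Col1a2 is higher in podocyte-like (56.9) than in mesangial-like cells (35.2), Sparc is high in mesangial-like, endothelial-like and podocyte-like cells alike, and Fn1 and Lox are also high in monocyte-like cells.

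T/NK-like cells, which should lack Mgp and Col12a1, held low levels of both in the same order of libraries as the mesangial-like cells. Mgp in T/NK-like cells was 29.8, 90.9 and 166 CPM, and in endothelial-like cells it was 14.0, 82.2 and 114. Col12a1 in T/NK-like cells was 1.19, 5.60 and 16.4. Free RNA (transcripts from broken cells, taken up with any cell) was estimated at 5.22%, 19.5% and 24.9% of the UMIs in mesangial-like cells, with barcodes of more than 100 and up to 500 UMIs as its profile. After its subtraction the treated over MRL/lpr log2 ratio was 2.31 for Col3a1 and 1.81 for Col12a1, and the MRL/lpr over control ratio of Col3a1 was 4.06. The treated over MRL/lpr ratio of Lox went from 2.69 to 1.39, with 0.361 CPM left in treated, 0.138 in MRL/lpr and 0 in control cells, and its treated over control ratio, set against the floor of 3 UMIs, went from 5.95 to 0.93. That of Timp1 for treated over MRL/lpr went from -0.42 to -0.96. With barcodes of 1 to 100 UMIs as the profile, Col3a1 and Fn1 were left at 0 in both the control and MRL/lpr cells, so that no ratio between these could be given. Col1a2 was likewise left at 0 in MRL/lpr cells, beside 22.9 CPM in control and 38.8 in treated cells, and its ratios against MRL/lpr then depend on the floor and are not read here.

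Whole-library levels mix the level within classes with the number of cells of each class. Over all cells, and so without the smaller barcodes, Col3a1 was 0.718, 8.82 and 50.8 CPM. When every class was given its share of UMIs in the control library, its log2 ratios stayed at 3.62 for MRL/lpr over control (3.62 observed) and 2.16 for treated over MRL/lpr (2.52 observed). For Fn1 the MRL/lpr over control ratio went from 3.07 observed to 1.66 at fixed shares and for Lox from 3.67 to 1.36. With the class shares of the MRL/lpr library instead, these 2 ratios were 0.80 for Fn1 and 3.24 for Lox, so both values depend on which shares are used. These whole-library sums used every class, also small ones such as the 11 macrophage-like cells of the control. For Sparc the treated over control ratio changed sign, from -0.48 observed to 0.35.

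The genes that make, cross-link, bind and degrade the matrix were read from 6 lists in mesangial-like cells, against the background of 13.6% of all genes at least 2-fold higher and 5.27% lower in MRL/lpr over control and 4.54% and 5.08% in treated over MRL/lpr. Of 17 collagen processing genes, 16 had enough UMIs. Of these, 0 were at least 2-fold higher and 2 lower in MRL/lpr over control, and 1 was higher and 0 lower in treated over MRL/lpr. Their medians of -0.07 and 0.37 stood beside 0.05 and 0.12 for all genes. Serpinh1, the collagen chaperone Hsp47, was 908, 270 and 344 CPM in control, MRL/lpr and treated cells. P4ha1, a prolyl hydroxylase subunit, was 190.4, 63.9 and 192. Those were the 2 lower genes, and P4ha1 was the 1 higher in treated cells.

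Of 29 other interstitial matrix genes, 7 of 21 counted were at least 2-fold higher and 1 lower in MRL/lpr over control, beside 13.6% and 5.27% of all genes, and 6 of 23 were higher and 3 lower in treated over MRL/lpr, beside 4.54% and 5.08%. Tnc (tenascin-C, a matricellular protein of injured tissue) was 18.2 CPM in control, 216 in MRL/lpr and 69.0 in treated cells, so it was lower in treated than in MRL/lpr cells by a log2 ratio of -1.65 (-1.75 to -1.54). Spp1 (osteopontin) was 4.54, 79.9 and 248, and Thbs1 (thrombospondin-1) 75.7, 259 and 449, both in the order of the collagens. Col6a3 was 56.9, 89.7 and 260.4, Col14a1 1.02, 5.93 and 14.2, and the elastic fibre gene Fbln5 18.2, 26.3 and 89.8. Postn (periostin) had the opposite order, at 15.1, 3.64 and 2.37. Ccn2, a matricellular gene of the TGF-beta response, was 2688, 1471 and 1774.

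Cross-linking, turnover and receptor genes gave mixed counts. As with the members, some list genes reached 20 UMIs only through the library where they were high, such as Loxl1 (7 control and 18 MRL/lpr UMIs) and, in the interstitial list, Col5a3 (11 and 22), and could not have been counted as lower. Of the cross-linking genes 2 of 4 counted were higher in MRL/lpr over control and 1 of 5 in treated over MRL/lpr, with 0 lower in both. Tgm2, a transglutaminase, was 4.30, 23.6 and 35.1 CPM. Of the turnover genes 2 of 12 were higher and 1 lower in MRL/lpr over control, and 3 of 14 higher and 1 lower in treated over MRL/lpr. The first pair of counts is near the 13.6% and 5.27% of all genes, and no result about the list. In treated over MRL/lpr the shares of all genes were 4.54% and 5.08%, and counts of 1 gene in a list are no result. Among the metalloproteinase inhibitors Timp2 was 447, 452 and 467, and Timp3 was 927, 1168 and 847. Mrc2, a collagen uptake receptor, was 52.4, 75.6 and 164. Of the matrix receptors 4 of 12 were higher and 0 lower, and then 1 of 11 higher and 0 lower. Cd44, the hyaluronan receptor, was 0.837, 18.8 and 38.1, and Itga2, a collagen-binding integrin, 4.18, 27.2 and 38.6.

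Basement membrane genes make the normal scaffold of the glomerulus. Of 13, 2 were at least 2-fold higher and 0 lower in MRL/lpr over control, and 0 were past 2-fold in treated over MRL/lpr. The 2 of 13 are near the 13.6% of all genes, and no result about the list. Col4a1 was 1044, 1196 and 1516 CPM, with a treated over MRL/lpr log2 ratio of 0.34 (0.31 to 0.37), beside 2.23 for Col3a1. The 2 higher genes were Col18a1, at 22.3, 62.4 and 111, and Hspg2 (perlecan), at 17.6, 48.1 and 62.2.

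Over the 31 combinations of class and library with at least 50 cells, the genes with levels most like Mgp were Fxyd1, Col6a3, Cd248, Fbn1 and Serping1 (Pearson's r of 0.928 to 0.941 among 16312 genes). Those most like Fn1 were C3, Lif, Inhba, Adora2b and Hgf (0.823 to 0.847). Sparc was most like Tm4sf1, C430049B03Rik, 9530026P05Rik, Mxra7 and Tjp1 (0.940 to 0.965), and Timp1 most like Gm15867, Gm43259, Synm, 2200002D01Rik and Filip1 (0.775 to 0.802). For Col1a1 they were Phex, Dclk1, Cdk15, Gm34471 and Col5a3 (0.893 to 0.907), at levels that rest on few UMIs. Points of 1 library share its depth and preparation, and the values are a description.

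Most Col1a1 transcripts lay outside cells. The libraries held 1974, 1556 and 1804 Col1a1 UMIs over all barcodes in control, MRL/lpr and treated mice, of which 13, 17 and 86 were in cells. Barcodes with 6 to 20 UMIs had Col1a1 levels of 409.8, 1737 and 1183 CPM, against 7.11, 2.31 and 5.07 in barcodes with more than 100 and up to 500 UMIs. Col3a1 was likewise at 492, 617 and 444 in the first and at 10.2, 8.57 and 42.1 in the second. Col12a1 showed no such step in the plot of levels by barcode size. In barcodes with 21 to 100 UMIs Col3a1 was at 601, 424 and 359 CPM, from 1842, 224 and 274 UMIs. Barcodes with at least 1000 UMIs held 56, 654 and 3492 Col3a1 UMIs. Most control Col3a1 thus also lay outside cells, and control was highest at 21 to 100 UMIs, unlike in cells. The cells that made the Col1a1 and Col3a1 transcripts of small barcodes were not identified here. Of the 964 MRL/lpr barcodes of 6 to 100 UMIs with Col1a1, 38.8% also had Col1a1 in the treated library. For those without Col1a1 the share was 1.25%, so the counts of these libraries are not independent, and the cause was not tested.

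**Figure D5:**
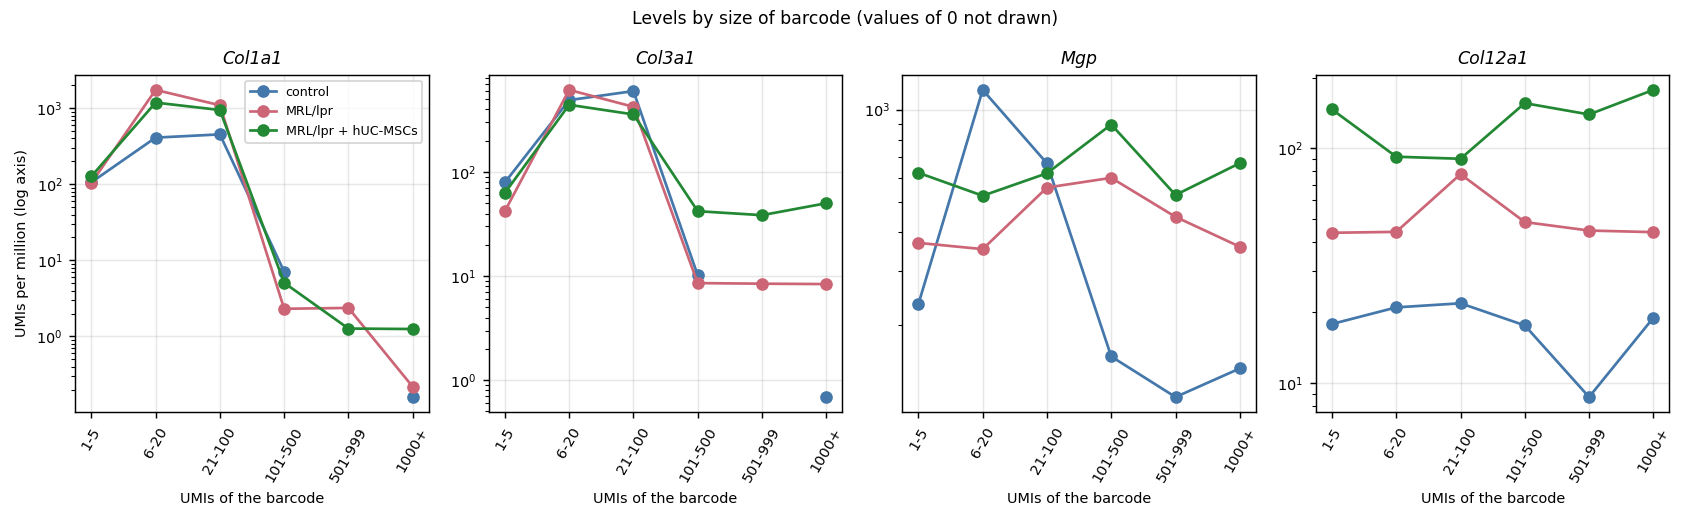
Levels of Col1a1, Col3a1, Mgp and Col12a1 (CPM, scaled to all UMIs of the size group, log axis) by the number of UMIs of a barcode (x axis), 1 line per library, with values of 0 not drawn. Col1a1 and Col3a1 are highest in barcodes with 6 to 100 UMIs, and Col1a1 is near 1 or less at 1000 UMIs and above. Col12a1 keeps the order control, MRL/lpr, treated at every size, while Mgp and Col3a1 do not. Mgp is highest in control at 6 to 20 (1159) and 21 to 100 UMIs (670). Col3a1 is highest in control at 1 to 5 (79.6) and 21 to 100 UMIs (601).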

How the data were processed

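Glomerular single cells of 3 libraries were profiled (1 library per group), from UMI counts deposited as unfiltered gene by barcode matrices by the authors and made per the labels with Cell Ranger and STAR on mm10. The file headers and the study's methods name different versions of Cell Ranger, and a version of STAR is not given in the sources used here. Cells were barcodes with at least 1000 UMIs and at most 10% mitochondrial UMIs, 41713 in all (the methods give about 8000 captured cells and do not say whether for each library), and library totals ranged from 90812138 to 103319588 UMIs. Counts were scaled to 10000 per cell, and 2000 variable genes without members and matrix lists gave 10 principal components, 15 neighbours and Leiden clusters (resolution 1.0, mixed clusters split at 0.5) in scanpy 1.11.5, igraph 0.11.9, numpy 2.4.6, pandas 2.3.3 and scipy 1.17.1 (python 3.11.15). A cluster was named when at least 3 markers of a type were detected in at least 10% of its cells and its score led by at least 0.5 (log2). A name was withheld where the leading genes held more markers of another type, or where the cluster was shallow with no leading marker of its type. Scrublet doublets (expected rate 0.8% per 1000 barcodes) were kept and flagged. Levels, ratios and shares carry exact Poisson, conditional binomial and Clopper-Pearson 95% intervals, with no test. Ratios needed at least 20 UMIs over both libraries and classes of at least 50 cells, and 3 counts served as the floor. The named genes were the members, list genes at least 2-fold apart in mesangial-like cells or among the 3 highest of their list, the 5 genes most like Col1a1, Mgp, Timp1, Fn1 and Sparc (log2 of level + 10, at least 100 UMIs), markers and leading genes. Scripts were tested on simulated data. The members and lists were chosen with earlier results of these data known. The free RNA profile of barcodes with more than 100 and up to 500 UMIs, the inclusion of unnamed clusters and the omission of a mesangial-like cluster were alternatives added after seeing the data.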

Additional observations from a re-analysis of the deposited data

Results flagged for a closer look

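Signal of Col1a1, the main chain of type I collagen, appeared in barcodes that no comparison of cells used. Barcodes with 1 to 100 UMIs held 97.0% of the Col1a1 UMIs of the control library, 95.6% of those of the MRL/lpr library and 90.9% of those of the treated library. Of the 964 MRL/lpr barcodes of 6 to 100 UMIs with Col1a1, 963 also had a UMI in the treated library and 374 (38.8%) had Col1a1 there, against 1.25% of the 53211 MRL/lpr barcodes of that size without Col1a1. In the control library 0 of the same 964 barcodes had Col1a1. From the other side, 377 of 1039 treated barcodes with Col1a1 (36.3%) had it in the MRL/lpr library, against 0.759% of those without. The cause was not tested.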

How the results depend on the processing

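No paired analysis was possible because each group was 1 library, and no replicate could be left out. Of 30 log2 ratios in mesangial-like cells 28 had at least 20 UMIs and 21 were past 2-fold. All 21 kept their sign in every alternative that gave a value, up to 10 alternatives each, and 16 stayed past 2-fold throughout. Some of these values were set by the 3-count floor after subtraction of free RNA. Of the 30 ratios, 6 had no value in at least 1 alternative. Members at least 2-fold higher in MRL/lpr over control numbered 3 in place of 5 with free RNA from barcodes of 1 to 100 UMIs subtracted and 3 with a minimum of 100 UMIs, and 1 was lower in place of 0 with that subtraction, which is Col1a2 with its MRL/lpr level left at 0 and its ratio (-6.47) set by the 3-count floor. Those higher in treated over MRL/lpr numbered 4 in place of 7 with 200 to 3000 genes a cell. The share of the UMIs of the 5 collagens in mesangial-like cells (70.8% control, 75.9% MRL/lpr, 75.4% treated) was 37.4%, 64.0% and 51.6% with 200 to 3000 genes a cell. It was 74.0%, 77.8% and 77.1% without predicted doublets, 76.2%, 73.1% and 76.6% with classes by marker score, and 76.1%, 71.0% and 73.1% at Leiden resolution 2.0. It was 87.2%, 85.7% and 77.4% with free RNA of 1 to 100 UMI barcodes subtracted, 75.5%, 85.4% and 78.6% with that of barcodes above 100 and up to 500 UMIs, and 72.0%, 77.3% and 87.5% with unnamed clusters scored mesangial included. It was 78.0% (MRL/lpr) and 78.8% (treated) with at least 2000 UMIs, and 73.8% and 70.2% without the mesangial-like cluster led by Cxcl9. Among the classes of at least 50 cells in a library, members highest in mesangial-like cells numbered 4 in control, 5 in MRL/lpr and 2 in treated mice. Smooth muscle and renin-like cells reached that size only in the treated library, so these counts do not rank the same classes. Mgp, for example, was higher in the control and MRL/lpr cells of the cluster led by Ren1 than in mesangial-like cells. In MRL/lpr the members highest in mesangial-like cells were 1 by marker score and 3 with the 1 to 100 subtraction, and in treated cells 0 with 200 to 3000 genes and 4 at resolution 2.0. The cause was not tested. Depth limits Col1a1, Lox and Timp1, which rest on few UMIs.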
